A study of Mus musculus with 41 samples.

Results

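The H3K4me1 regions called in LSD1n KO cortical neurons were compared between KCl 0 h and KCl 1 h. All called regions on chromosomes 1 to 19 of the KO libraries at 0 h and 1 h were taken, 33155 at 0 h and 62758 at 1 h. Together they are 95913 of the 488881 regions and sites in all 27 lists of the series analysed here. The series asks where the histone demethylase LSD1 and its neuronal isoform LSD1n bind in mouse primary cortical neurons, and how histone marks differ without LSD1n. Each list comes from chromatin immunoprecipitation followed by sequencing, and holds the stretches of the genome where the immunoprecipitated DNA was enriched.

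All neurons were labelled DIV10, that is 10 days in vitro, and KCl was used at 55 mM, with samples at 0 h and 1 h. The titles of the H3K4me1 libraries read KClminus at 0 h and KClplus at 1 h. The groups used are H3K4me1 in LSD1n KO at 0 h and 1 h and in LSD1n WT at 0 h and 1 h, with 1 library each. Context came from H3K4me2 in LSD1n WT neurons at both times, Pol II in neurons labelled LSD1n KO and WT at both times, and LSD1 in wild type neurons at both times. It also came from LSD1 in LSD1n KO neurons with no KCl time given, LSD1 in LSD1n WT neurons at 0 h, and Flag-tagged LSD1n or LSD1c at both times. H3K4me2 was listed only for LSD1n WT, so the H3K4me2 context of KO regions is that of the other genotype. The genotype written inside all 4 Pol II lists is the opposite of their labels, and the groups follow the labels. Nothing in the labels says how the KO was made, or that libraries came from separate cultures. With 1 library a group no difference was tested. Bracketed ranges are 95% exact intervals that cover counting error only.

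H3K4me1 is laid down at enhancers, active or poised, and on the flanks of promoters. H3K4me2 marks a narrower set of enhancers and promoters. LSD1 (KDM1A) is a demethylase that takes methyl groups off mono- and dimethylated lysine 4 of histone H3, and LSD1n is an isoform made in neurons by inclusion of a short extra exon. High extracellular KCl depolarizes neurons, lets calcium in and switches on activity-dependent genes.

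The KO libraries at the 2 times stood apart in depth and in their sex chromosomes. The 1 h library had 34859557 tags and the 0 h library 22970480, a ratio of 1.52, while the WT libraries had 23440511 at 1 h and 23973912 at 0 h. A deeper library allows a lower enrichment to be called: a peak needed 26 tags where 8.715 were expected at KO 1 h (2.98 times), and 21 tags where 5.743 were expected at KO 0 h (3.66 times). In the WT libraries the call needed 3.50 and 3.58 times the expected tags. On chromosome Y the KO list held 29 regions at 0 h and 0 at 1 h, which allows up to 0.00477% of the list (3 regions), against 26 and 22 in WT. Regions on chromosome X went from 58 to 185 in KO and from 70 to 86 in WT. The labels give no sex of the animals. KCl time, depth and this difference cannot be told apart in KO, and their part in the results below was not tested.

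H3K4me1 regions were more numerous, wider and covered more of the genome at 1 h than at 0 h in KO. The list went from 33155 to 62758 regions, a log2 ratio of 0.92 (0.90 to 0.94), and the covered length from 31.6 to 77.6 Mb. The median width went from 645 to 805 bp. The share of tags inside regions rose from 5.89% to 12.3%, whereas the mean density of tags in regions, relative to the genome, was 3.71 at 0 h and 3.16 at 1 h. In WT the list went from 37106 to 44683 regions, a log2 ratio of 0.27 (0.25 to 0.29), at nearly equal depth. The covered length in WT went from 36.7 to 49.9 Mb.

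The increase was graded by width. The narrowest regions, all of 501 bp, went from 13839 to 18156 in KO, a log2 ratio of 0.39 (0.36 to 0.42). Regions of 1 to 2 kb went from 6424 to 16260, a log2 ratio of 1.34 (1.30 to 1.38). Those of 2 kb or more went from 2591 to 9410, a log2 ratio of 1.86 (1.80 to 1.92). Regions over 5 kb, the broadest class with many members, went from 157 to 988, or 6.29-fold, with a log2 ratio of 2.65 (2.41 to 2.91). Only 14 regions at 0 h and 87 at 1 h were over 10 kb. The same order by width held in WT up to 5 kb at a lower level, from 0.01 (-0.02 to 0.04) at 501 bp to 1.15 (0.91 to 1.39) over 5 kb, where regions went from 203 to 450.

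**Figure D1:**
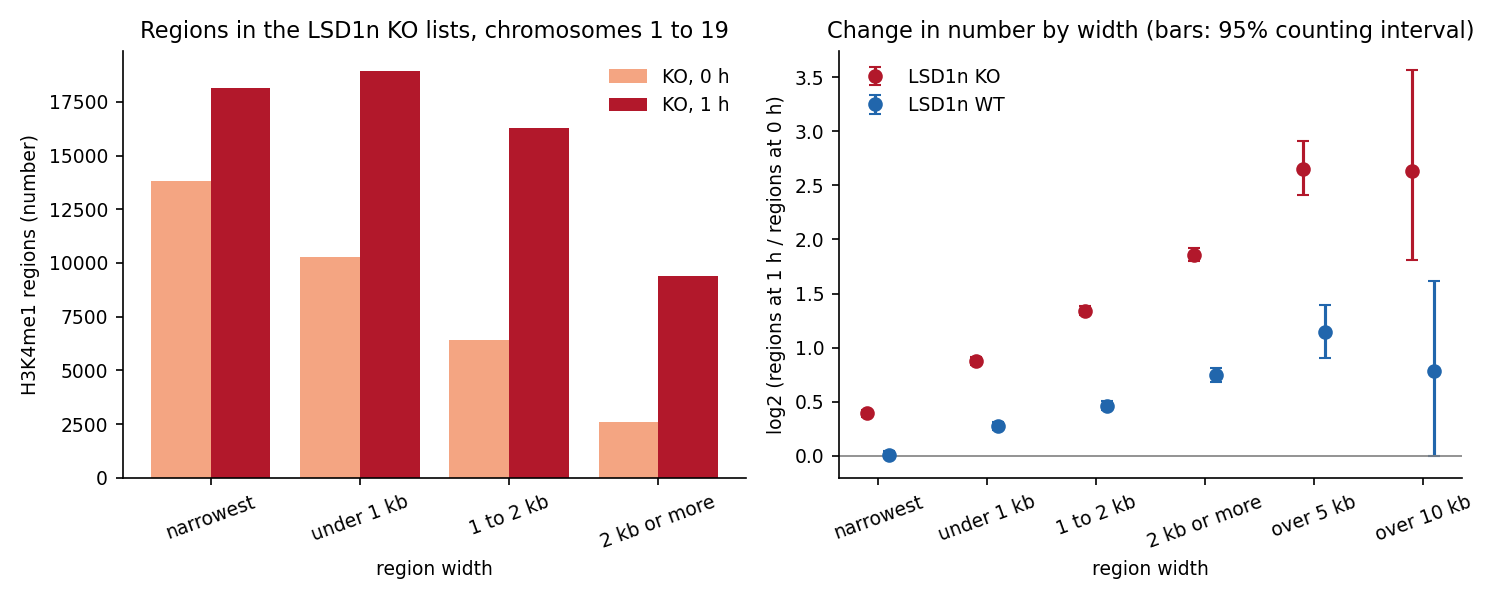
Left, number of H3K4me1 regions in the LSD1n KO lists at 0 h and 1 h by region width (the narrowest are 501 bp). Right, log2 ratio of the number at 1 h to that at 0 h for KO and WT, with 95% counting intervals; the KO ratio climbs from 0.39 at 501 bp to 2.65 over 5 kb and lies above WT in each width class.

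Gained regions, those at 1 h that no 0 h region overlapped by at least 1 bp, numbered 38537 of 62758 in KO (61.4%, 61.0 to 61.8). They covered 31.8 Mb and were narrow, with a median of 641 bp. Of the 501 bp regions at 1 h, 89.1% were gained, of those from 1 to 2 kb 43.6%, and of those of 2 kb or more 14.9%. Over 5 kb only 11 of 988 were gained (1.11%, 0.557 to 1.98). By the 1 bp rule, broad H3K4me1 regions at 1 h in KO thus nearly all overlapped a 0 h region. A wide region meets a 0 h region more often by its width alone. This count does not give how much of the length of broad regions was called at 0 h. In WT 22050 of 44683 regions were gained (49.3%), and 0 of 450 over 5 kb (at most 0.816%).

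With the 1 h KO list shortened to its 33155 widest regions, 13354 (40.3%, 39.7 to 40.8) were gained. The narrowest region kept was then 779 bp wide, and the shortened list still covered 60.8 Mb, more than the 31.6 Mb at 0 h. Shortening by width keeps the widest regions, so it equalizes the number and not the length. With the list shortened to the covered length at 0 h, 9653 regions of at least 1975 bp remained, of which 1467 (15.2%) were gained, while 70.0% of the 0 h regions had no overlap in it. The WT list shortened to the number at 0 h had 43.8% gained and 41.9% of its 0 h regions lost. That WT share is above the 40.3% of KO, but the shortened WT list still held regions of 501 bp, so the 2 differ in width. Within each width class of the full lists the gained share was higher in KO. It was 89.1% against 76.5% in WT at 501 bp, 73.3% against 54.4% under 1 kb, 43.6% against 26.0% from 1 to 2 kb, and 14.9% against 6.37% at 2 kb or more.

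Lost regions, those at 0 h with no overlap at 1 h, numbered 7277 of 33155 in KO (21.9%, 21.5 to 22.4) and 13798 of 37106 in WT (37.2%). Loss in KO fell with width: 38.9% of the 501 bp regions at 0 h were lost, 2.88% of those from 1 to 2 kb, and 8 of 2591 (0.309%) of those of 2 kb or more. In WT 12.0% of regions from 1 to 2 kb and 47 of 3222 (1.46%) of those of 2 kb or more were lost. With the 1 h KO list shortened to equal number, 35.0% of 0 h regions counted as lost, but 4338 of those 11615 were still called in the full 1 h list.

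A smaller share of gained regions lay near regions of the 0 h list in KO than in WT. The median gap from a gained region to the nearest 0 h region was 12.2 kb in KO and 6.94 kb in WT. Within 5 kb of a 0 h region lay 32.5% (32.1 to 33.0) of the KO gained regions and 44.5% (43.9 to 45.2) of those in WT. In the shortened lists the shares were 35.9% and 45.6%.

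Of the loci called at both times in KO, many more had a longer called length at 1 h than a shorter one. Overlapping regions of the 2 lists were joined into 24024 shared loci, and the called length at 1 h was divided by that at 0 h. It was longer at 1 h in 81.3% of them and shorter in 13.8%, with a median ratio of 1.57. A locus was called widened where the length was 2 times or more that at 0 h, and narrowed at 0.5 times or less. By this rule 8261 loci widened (34.4%, 33.8 to 35.0) and 293 narrowed (1.22%, 1.08 to 1.37). No called region was narrower than 501 bp, so a locus under 1 kb at 0 h could widen but not narrow. A locus of 501 bp could not shorten at all. Of the 24024 loci, 7426 were of 501 bp at 0 h and 7519 more were under 1 kb, so the pooled counts are no even balance. The 293 narrowed loci all had 1 kb or more at 0 h. In that range 1297 loci of 1 to 2 kb and 304 of 2 kb or more widened. The called length of the widened loci went from 6.54 to 19.8 Mb. Just inside the threshold, 330 widened loci had a ratio under 2.05, and just outside, 320 loci had a ratio of 1.95 or more.

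In WT 3786 of 22237 shared loci widened (17.0%, 16.5 to 17.5) and 1141 narrowed (5.13%), with a median ratio of 1.16. These narrowed WT loci likewise all had 1 kb or more at 0 h. In that range 507 WT loci of 1 to 2 kb and 59 of 2 kb or more widened, fewer than narrowed. Widening was most frequent where the 0 h region was narrow. The rule itself favours this order, because a narrow locus needs little added length to reach 2 times and one of 501 bp cannot shorten. It reached 52.3% of KO shared loci of 501 bp at 0 h, 21.0% of those from 1 to 2 kb and 10.5% (9.37 to 11.6) of those of 2 kb or more. The WT shares in the same classes were 34.8%, 7.72% and 1.76% (1.34 to 2.27). Loci of 2 kb or more at 0 h had a median ratio of 1.28 in KO and 1.01 in WT.

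The shortened lists keep 1 h regions by their width at 1 h, so by construction they leave out narrowed loci, and their counts say nothing on the balance of widening and narrowing. With equal numbers of regions in KO, 8256 of 19693 shared loci widened (41.9%) and 63 narrowed (0.320%). The regions left out were at most 779 bp wide, so mainly narrow shared loci left the denominator. In the shortened WT list 18.5% widened and 4.20% narrowed. At equal covered length, where only 1 h regions of at least 1975 bp were kept, 4169 of 8161 KO loci widened (51.1%) and 2 narrowed (0.0245%).

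**Figure D2:**
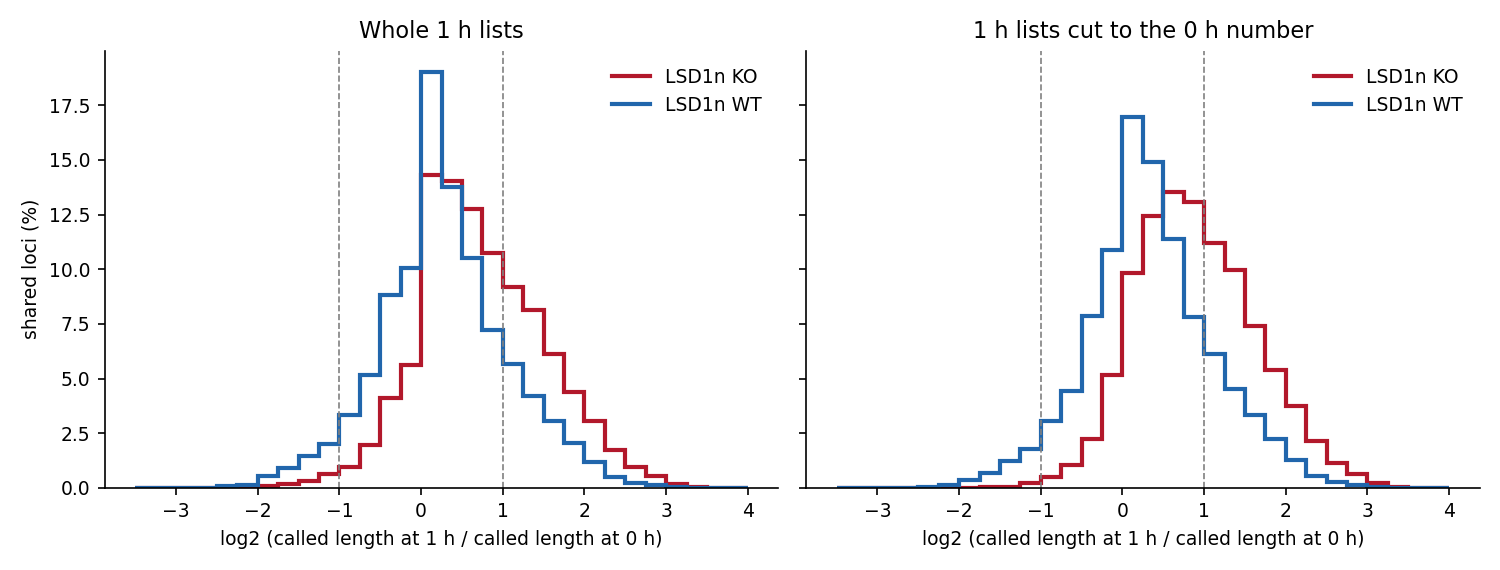
Share of shared loci by log2 ratio of called H3K4me1 length at 1 h to 0 h, in KO and WT, with whole 1 h lists on the left and 1 h lists shortened to the number of 0 h regions on the right. Dashed lines mark the widened and narrowed thresholds; in the whole lists the median ratio is 1.57 in KO and 1.16 in WT, and the shortened lists leave out narrow 1 h regions by construction.

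Most widened loci held a single region at 0 h, and few joined regions already called at 0 h. The authors stitched regions from 500 bp peaks, so these counts cannot show joining to a peak first called at 1 h. Of the 8261 widened KO loci, 7513 (90.9%) had 1 region at 0 h, and 735 (8.90%, 8.29 to 9.53) had 2 or more 0 h regions inside 1 region at 1 h. A single region at 0 h was also the rule in the other shared KO loci, with 14605 of 15470 (94.4%). There 811 loci (5.24%, 4.90 to 5.61) had 2 or more 0 h regions inside 1 at 1 h, a smaller share than in widened loci. Among the 7481 loci with a single region at each time, the median added length was 1323 bp. A median of 83.7% of the added length lay on the larger side, and 45.5% of the loci gained 250 bp or more on both sides. Loci at least 5 times longer numbered 693 in KO and 158 in WT, and loci at least 10 times longer 12 and 1.

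The 5 widened loci with the most added length include loci with a single region at 0 h and loci with several. At chr8:10988779-11003187 (mm9 here and for all positions) 2.39 kb in 2 regions at 0 h became 1 region of 14.4 kb at 1 h, or 6.02 times. At chr15:72979256-72993356, 3 regions of 3.46 kb in sum became 1 of 14.1 kb. At chr4:123081228-123091551 a single region of 0.637 kb at 0 h stood against one of 9.95 kb at 1 h, 15.6 times. They overlapped only at an edge: the 0 h region spanned 0 to 0.637 kb of the locus and the 1 h region 0.377 to 10.324 kb. This locus also held a site in each of the 4 Pol II lists. It held an LSD1 site in LSD1n KO neurons, in LSD1n WT at 0 h and in wild type at 0 h, but not in wild type at 1 h. A Flag-LSD1c site at 0 h lay there too.

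At chr17:30323596-30335388 a region of 2.95 kb became one of 11.8 kb. At chr7:56517408-56534369, 5 regions of 7.74 kb in sum became 2 of 16.0 kb in sum. The WT lists covered these 5 loci in part, from 20.7% to 55.0% of their length at 0 h and from 35.1% to 59.7% at 1 h. All 5 held H3K4me2 in the 1 h list, and 1 held a Pol II site labelled KO at 1 h.

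**Figure D3:**
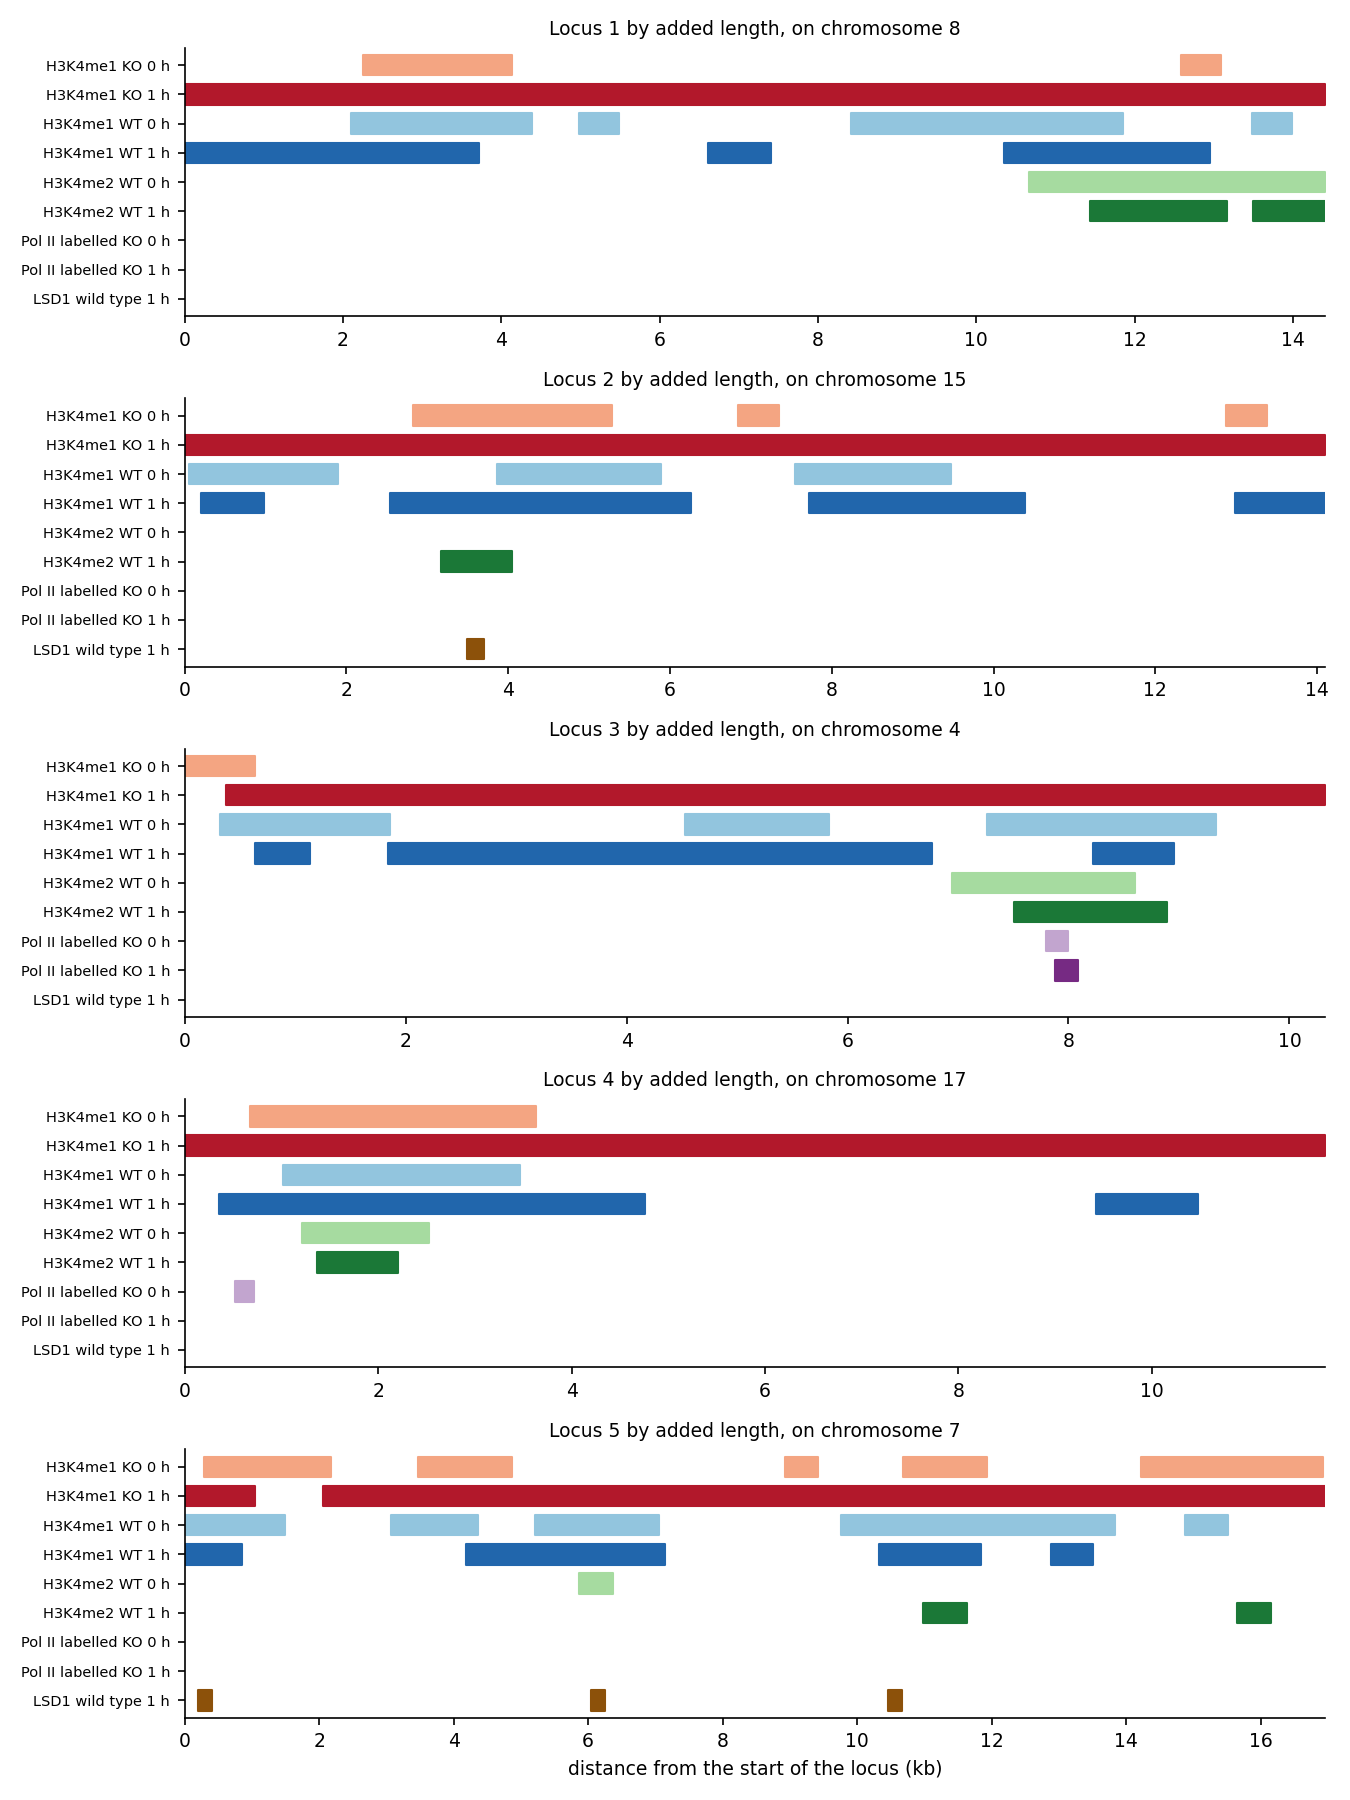
Called regions and sites at the 5 widened KO loci with the most added length, as distance from the start of each locus in kb, with 1 row per list. H3K4me1 at KO 1 h is continuous or nearly so where KO 0 h and both WT lists hold 1 to 5 separate regions.

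The 5 widest gained regions were chr9:49560041-49569383 (9.34 kb), chr4:130274998-130281422 (6.43 kb), chr6:113431153-113437279 (6.13 kb), chr8:96338641-96344585 (5.95 kb) and chr5:30890963-30896769 (5.81 kb). None had a KO region at 0 h, yet the WT 0 h list covered 12.4% to 44.6% of each. The region on chromosome 6 held H3K4me2, a Pol II site in all 4 lists and an LSD1 site in all 4 LSD1 antibody lists. The region at chr4:130274998-130281422 held none of these.

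Among the 3 widest lost regions, a pair lay beside each other at chr2:27350851-27353393 (2.54 kb) and chr2:27354589-27357849 (3.26 kb). The WT lists covered the wider of them by 88.2% at 0 h and 100% at 1 h, and it held LSD1, Flag-LSD1n and Flag-LSD1c sites. H3K4me2 covered 45.1% of it at 0 h and 57.7% at 1 h, and 80.2% and 28.1% of the narrower one. The narrower one held an LSD1 site in wild type at 0 h and a Flag-LSD1c site at 1 h. The third, chr1:37388915-37391433 (2.52 kb), held no H3K4me2, Pol II or LSD1 site, and the WT lists covered 100% of it at 0 h and 46.3% at 1 h. The widest region at KO 1 h, chr11:3025089-3100021 (74.9 kb), was called over 98.1% of its length at KO 0 h and over 97.4% and 98.3% in WT. The next, chr2:28369294-28396430 (27.1 kb) and chr1:39984636-40009472 (24.8 kb), were called over 72.1% and 58.2% at KO 0 h.

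H3K4me2, Pol II and LSD1 lay in a smaller share of gained regions than of regions shared with 0 h. H3K4me2 at 1 h overlapped 11.7% (11.4 to 12.0) of gained regions, 33.5% of widened and 28.5% of the other shared regions. Pol II labelled KO at 1 h, which marks promoters and transcribed enhancers, overlapped 5.02% of gained, 15.4% of widened and 11.6% of other shared regions. LSD1 in wild type neurons at 1 h overlapped 6.45% of gained, 20.5% of widened and 18.2% of other shared regions. Counting every list of the 3 kinds, 28481 of the 38537 gained regions (73.9%) held none, and 1508 (3.91%) held all 3. Of widened regions 38.3% held none and 13.4% all 3, and of other shared regions 44.0% and 10.3%. Among regions from 1 to 2 kb, 58.6% of gained, 47.1% of widened and 40.4% of other shared regions held none.

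A wide region overlaps more sites by its width, so the shares were also taken within width classes. Among regions from 1 to 2 kb, H3K4me2 at 1 h lay in 19.7% (18.8 to 20.7) of 7087 gained, 24.8% (23.5 to 26.2) of 4182 widened and 27.7% (26.5 to 29.0) of 4979 other shared regions. Pol II labelled KO at 1 h lay in 7.62% (7.01 to 8.26), 9.18% (8.32 to 10.1) and 11.0% (10.1 to 11.9) of them. LSD1 in wild type at 1 h lay in 10.5% (9.78 to 11.2), 14.6% (13.6 to 15.7) and 17.3% (16.3 to 18.4). The widened regions, above the other shared ones when all widths were pooled, thus lay between gained and other shared regions for all 3 at this width.

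Among regions of 2 kb or more, H3K4me2 at 1 h lay in 33.0% of 1401 gained, 42.4% of 4087 widened and 47.0% of 3922 other shared regions. LSD1 in wild type at 1 h lay in 17.5% (15.5 to 19.6), 26.6% (25.2 to 28.0) and 34.9% (33.4 to 36.4) of them. For Pol II labelled KO at 1 h the shares were 17.99% (16.0 to 20.1), 21.7% (20.5 to 23.0) and 21.0% (19.8 to 22.3), and the intervals of widened and other shared regions overlapped.

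At 2 kb or more the order of the 3 shares was not the same in each LSD1 list. For LSD1 in LSD1n KO neurons, whose KCl time is not given, regions of 2 kb or more gave 16.2% gained, 15.4% widened and 14.3% other shared. In the shortened list the intervals of these shares overlapped (14.3 to 18.2, 14.3 to 16.6 and 13.2 to 15.4). From 1 to 2 kb the shortened list gave 8.68%, 10.1% and 10.4%, with gained regions lowest. For LSD1 in wild type neurons at 0 h, regions of 2 kb or more gave 23.2%, 27.8% and 28.8%. Flag-LSD1n at 1 h, the tagged neuronal isoform, lay in 4.14% of gained, 4.77% of widened and 3.01% of other shared regions of this width. Flag-LSD1c at 1 h, the other tagged form, lay in 4.57%, 6.17% and 4.79%. Pol II labelled WT at 1 h gave 15.1%, 20.3% and 21.2%.

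**Figure D4:**
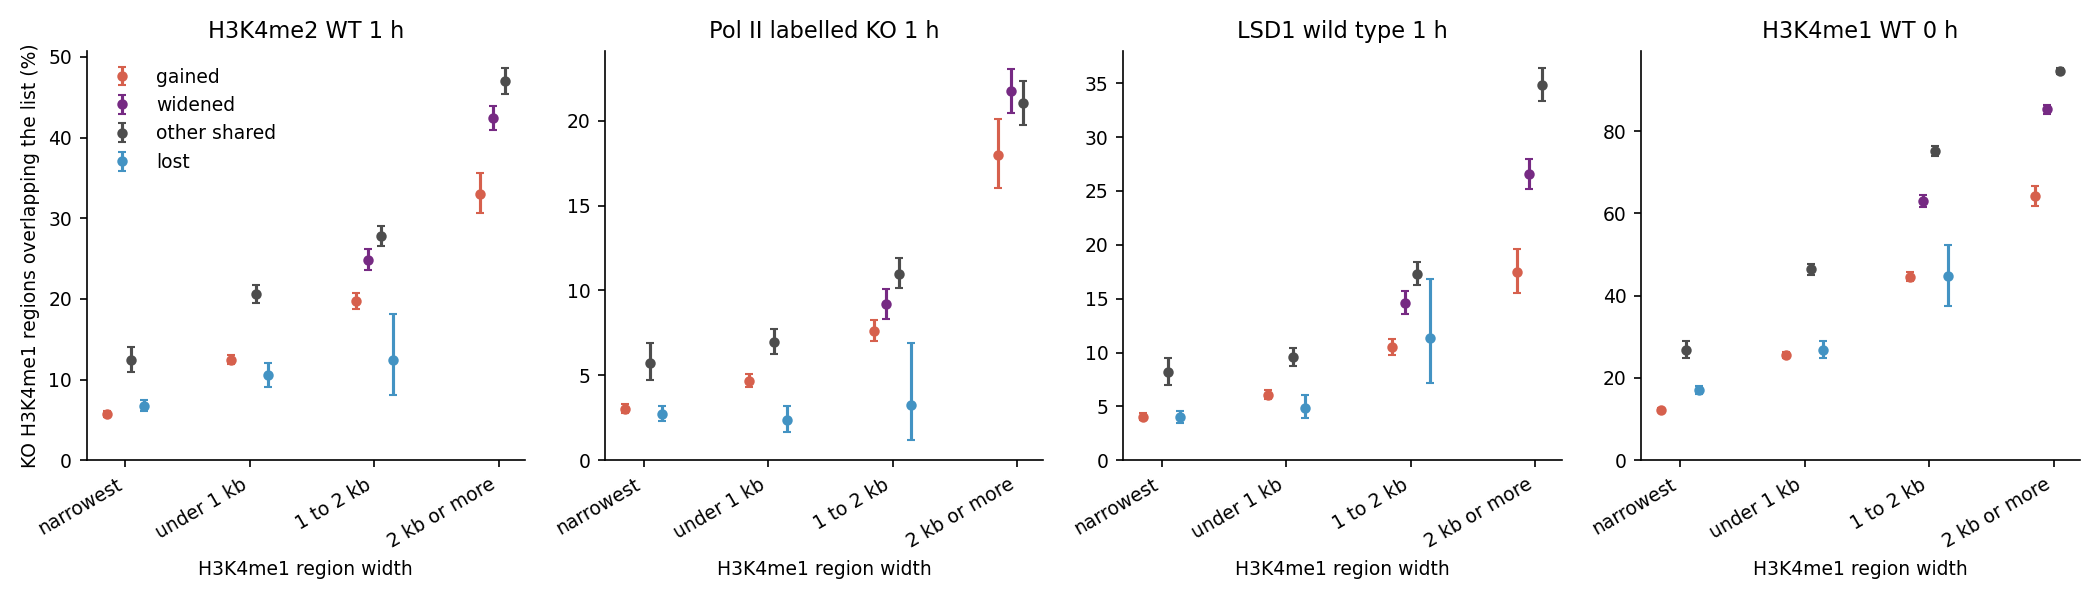
Share of KO H3K4me1 regions that overlap H3K4me2, Pol II, LSD1 and WT H3K4me1 at 0 h, by class and region width (at 0 h for lost regions, at 1 h for the others), with 95% counting intervals. Gained regions lie below other shared regions in each width class for all 4 lists, for example 19.7% against 27.7% for H3K4me2 from 1 to 2 kb; the few widened regions under 1 kb and lost regions of 2 kb or more are not drawn.

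The length added at shared loci was somewhat poorer in H3K4me2 than the length already called at 0 h. In widened loci H3K4me2 at 1 h covered 14.7% of the 6.54 Mb called at 0 h and 12.2% of the 13.9 Mb added. In other shared loci it covered 15.0% of the length at 0 h and 10.9% of the length added. Gained loci, with 31.8 Mb, had 7.27% covered. In WT the widened loci had 17.0% covered in both parts. For Pol II labelled KO at 1 h the KO widened loci had 1.16% of the 0 h length and 1.32% of the added length covered.

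Seen from the context sites, H3K4me1 calls in KO became more frequent at each kind. The called length as a whole rose from 31.6 to 77.6 Mb, or to 60.8 Mb in the shortened list. Sites anywhere in the genome would thus be overlapped more often at 1 h. Whether the rise at the context sites differed from this general rise was not tested. Of 15081 H3K4me2 regions at 1 h, 45.1% (44.3 to 45.9) overlapped KO H3K4me1 at 0 h and 73.6% (72.9 to 74.3) at 1 h, or 59.7% with the shortened list. The WT H3K4me1 lists overlapped 51.1% and 66.4% of the same regions. Of 15712 Pol II sites labelled KO at 1 h, 14.4% (13.9 to 15.0) overlapped KO H3K4me1 at 0 h and 32.9% (32.2 to 33.7) at 1 h, or 25.7% with the shortened list.

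For 18258 LSD1 sites in wild type neurons at 1 h the shares were 20.4% at 0 h, 40.0% at 1 h and 31.5% shortened. For 13445 LSD1 sites in LSD1n KO neurons they were 15.8%, 36.1% and 27.3%. For 4336 Flag-LSD1n sites at 1 h they were 9.13%, 23.9% and 17.1%. Of the 802 Flag-LSD1n sites at 0 h, the shortest list, 20.2% (17.5 to 23.1) overlapped KO H3K4me1 at 0 h, 30.3% (27.1 to 33.6) at 1 h and 18.6% (15.9 to 21.4) with the shortened list. For this list the higher share at 1 h was present with the full list and not with the shortened one.

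A larger share of the Pol II sites called at 1 h alone than of those called at both times lay in KO H3K4me1 already at 0 h. Of 5494 sites called at 1 h alone, 20.7% (19.7 to 21.8) lay in KO H3K4me1 at 0 h and 39.2% at 1 h. Of 10218 sites called at both times, 11.0% (10.4 to 11.6) lay in it at 0 h and 29.6% at 1 h. The 3603 sites called at 0 h alone had 14.6% and 27.3%. In each of the 3 groups the share was higher at 1 h, also with the shortened list, at 32.8%, 21.8% and 22.9%.

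Around the sites, H3K4me1 calls in KO were more frequent at 1 h, with their maximum at the same distance at both times. At the centre of H3K4me2 regions at 1 h, the call frequency was 23.8% at KO 0 h and 47.3% at KO 1 h, and 5 kb away it was 4.64% and 10.5%. Around Pol II sites labelled KO at 1 h the calls dipped at the centre, to 12.1% and 29.1%, and were highest 0.75 kb away, averaged over both sides, at 14.7% and 33.1%. Around Flag-LSD1n sites at 1 h the dip was deeper, to 7.20% and 19.5% at the centre, with maxima of 17.1% and 38.6% at 1.25 kb. Around LSD1 sites of wild type neurons there was no dip, and the centre was highest at 18.1% and 36.2%.

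**Figure D5:**
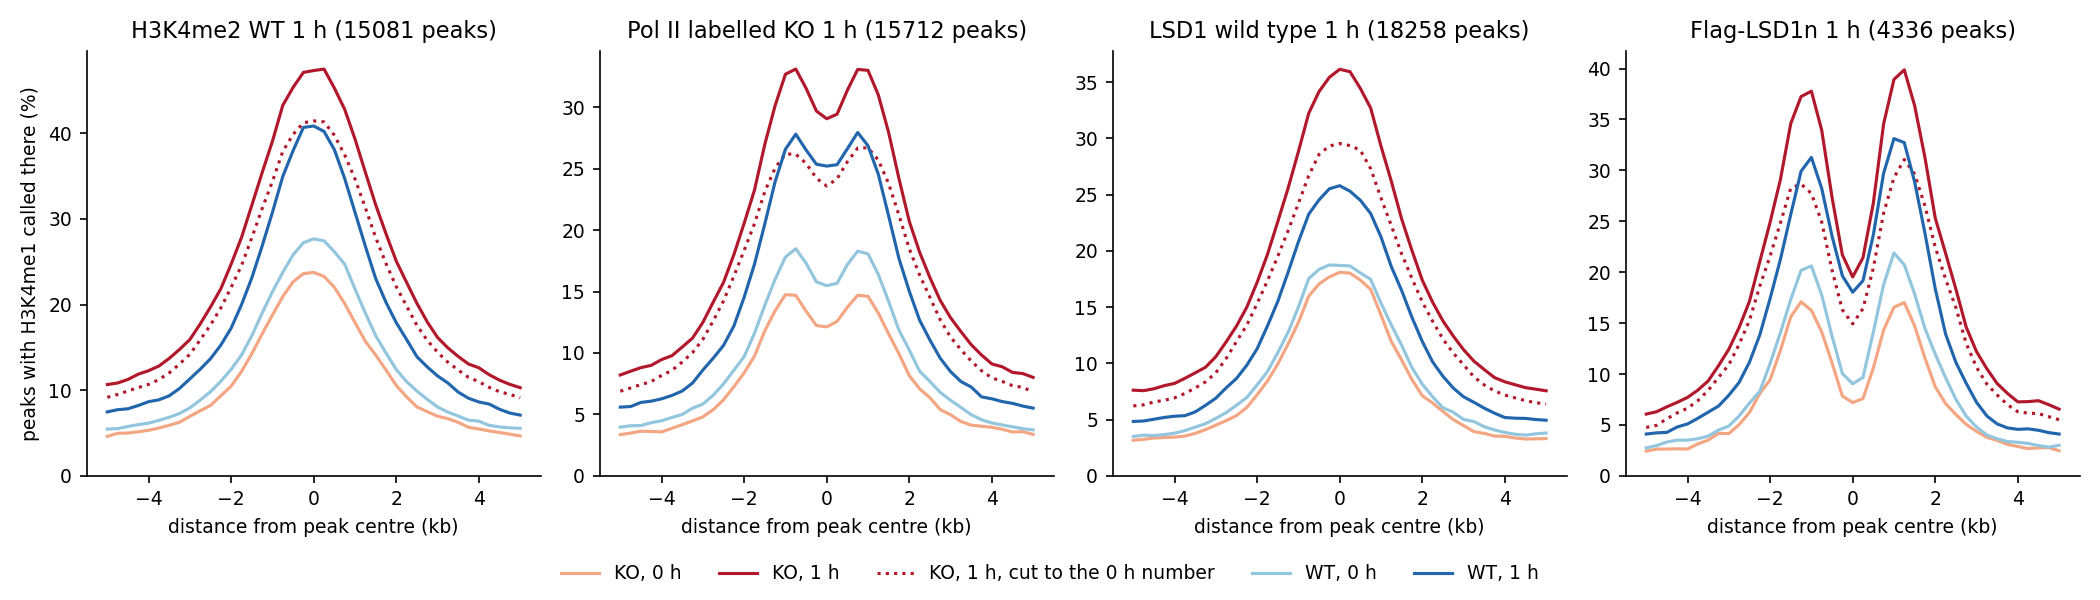
Share of sites with H3K4me1 called at each distance from the site's centre, in kb, for the KO and WT lists and the KO 1 h list shortened to the 0 h number. The central dip at Pol II and Flag-LSD1n sites is present at both times; at the Pol II centre the KO frequency is 12.1% at 0 h and 29.1% at 1 h.

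Many regions gained in KO were called in WT neurons, in part before KCl. Of the 38537 gained regions, 24.9% (24.4 to 25.3) overlapped a WT 0 h region and 33.0% (32.5 to 33.4) a WT 1 h region, and 57.3% overlapped neither. The share grew with width: of the 1401 gained regions of 2 kb or more, 900 (64.2%, 61.7 to 66.8) overlapped WT 0 h, 1054 (75.2%) WT 1 h, and 203 (14.5%) neither. A wide region overlaps more by its width alone. From 1 to 2 kb and at 2 kb or more, the WT 0 h shares were 44.6% and 64.2% by 1 bp. With a 500 bp window at the midpoint they were 33.8% and 40.0%. Of the gained regions in the shortened list, 42.4% overlapped WT 0 h and 54.3% WT 1 h. For comparison, 74.0% of the widened and 65.4% of the other shared KO regions overlapped WT 0 h with all widths pooled. Within width classes the order of widened and other shared regions was the other way. From 1 to 2 kb the shares were 62.9% and 75.1%, and at 2 kb or more 85.3% and 94.6%.

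Regions lost in KO overlapped WT 0 h in 20.1% and WT 1 h in 26.4%. Of the 22050 regions gained in WT, 24.2% overlapped KO 0 h and 55.3% KO 1 h.

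The number of regions was higher at 1 h on each of the 19 chromosomes in KO. The log2 ratio of region numbers ranged from 0.81 on chromosome 11 to 1.04 on chromosome 3, with a median of 0.92 over 19 chromosomes. The gained share ranged from 56.7% on chromosome 11 to 65.1% on chromosome 3, and the widened share from 30.5% on chromosome 8 to 37.4% on chromosome 16. Of 2284 windows of 1 Mb with any KO H3K4me1, 2253 had more called length at 1 h and 23 less. The 3 windows with the most added length, chosen after their values were seen, included 2 neighbours at chr10:79000001-80000000, from 103 to 213 kb, and chr10:80000001-81000000, from 125 to 244 kb. The third, chr17:56000001-57000000, went from 77.2 to 176 kb.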

How the data were processed

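The deposited values are positions (where a called region starts and ends) and hold no signal. Bowtie, HOMER and mm9 are named in the submitters' processing notes, with no tool versions. The authors stitched histone regions, per the file headers, from 500 bp peaks with a minimum distance of 1250 bp, fragments of 150 bp and a false discovery rate of 0.001. Total tags were read from the headers. Sites of Pol II, LSD1 and Flag were called at 200 bp.

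Lists were compared on chromosomes 1 to 19 with Python 3.11.15, numpy 2.4.6, pandas 2.3.3 and scipy 1.17.1, and drawn with matplotlib 3.10.9. Overlap meant at least 1 bp. Shares have Clopper-Pearson intervals and ratios exact conditional Poisson intervals, at 95%. The classification was checked on simulated lists. Named regions were the 5 widest gained, the 5 widened loci with the most added length, the 3 widest lost and the 3 widest at 1 h. Members, lists and classes were chosen with earlier results of these data known. Positions count from 1. Without an annotation or genome of mm9, genes and sequences are not given, and neither the planned gene lists nor the cell type markers were run.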

Additional observations from a re-analysis of the deposited data

Results flagged for a closer look

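H3K4me1 regions on the sex chromosomes lie outside the comparisons, which used chromosomes 1 to 19, and all counts on X and Y in the 4 H3K4me1 lists, except the 0 on Y at KO 1 h, are above the 3 regions that a count of 0 allows. On chromosome X the KO lists held 58 regions at 0 h and 185 at 1 h, 3.19-fold, a log2 ratio of 1.67 (1.24 to 2.12). This is above the 1.89-fold of chromosomes 1 to 19. The WT lists held 70 and 86, a log2 ratio of 0.30 (-0.18 to 0.77). On chromosome Y the KO list held 29 regions at 0 h and 0 at 1 h, and the WT lists held 26 and 22. The H3K36me3 KO list at 1 h and the H4K20me1 KO list at 0 h also held 0 regions on Y. The difference between the 2 genotypes on X was not tested.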

How the results depend on the processing

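No paired analysis was possible because each group holds 1 library, so no library could be left out either. Of 59 alternatives to 9 values, 10 stayed within the interval of the reported value, 49 did not, and none reversed the log2 ratio. Leaving out regions that overlapped all 8 targets (run for 7 values) or adding the other chromosomes (run for the region number and the gained and lost shares) moved none of these beyond its interval. These are the 10 that stayed, and both settings changed the lists too little to move a value far. Only 69 of 33155 regions at 0 h and 109 of 62758 at 1 h overlapped all 8 targets. All chromosomes together held 33244 and 62945 regions. The log2 ratio of 0.92 was 1.30 for covered length, 0.76 with regions within 5 kb merged, 1.51 at a width of at least 1 kb, 1.39 above the pooled median width and 1.06 for the share of tags in regions. The gained share of 61.4% was 40.3% with the 1 h list shortened to the 0 h number, 39.6% when shortened by deposited order (chosen after seeing the data), 15.2% at equal covered length, 45.7% with the 10000 widest of both lists, 82.1% when 50% of a region had to overlap, 55.3% when regions within 1 kb counted as shared, and 33.1% at a width of at least 1 kb. In the same order the lost share of 21.9% was 35.0%, 34.4%, 70.0%, 41.9%, 35.5%, 12.4% and 2.14%. The widened share of 34.4% was 41.9%, 41.5% and 51.1% for the 3 shortened lists, 54.0% at 1.5 times, 14.8% at 3 times and 45.9% with regions within 5 kb merged.

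For gained regions in the shortened list, the shares were 19.7% for H3K4me2, 7.91% for Pol II and 9.95% for LSD1. With a 500 bp window at the midpoint they were 9.39%, 3.42% and 4.58%, with context within 1 kb 17.7%, 15.9% and 15.8%, with the 0 h context list 14.0%, 3.95% and 8.25%, and for regions from 1 to 2 kb 19.7%, 7.62% and 10.5%. The Pol II list of the other genotype label gave 4.26%. Gained regions called at WT 0 h and WT 1 h were 42.4% and 54.3% in the shortened list, 11.9% and 18.4% with 50% overlap, 32.9% and 42.3% within 1 kb, and 47.9% and 60.0% at a width of at least 1 kb. The cause was not tested, except that the shortened lists hold fewer narrow regions by construction. Which regions depth limits was not tested; at 501 bp, 89.1% were gained and 38.9% lost in KO, and 76.5% and 59.7% in WT at nearly equal depth.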
